A study of Canis rufus and Canis latrans with 56 samples.

Results

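Red wolves whose blood held a high signal for EGR1 are compared here with red wolves whose blood did not. EGR1 encodes a zinc finger transcription factor whose gene is among the earliest to be transcribed when a cell is stimulated. The sides were selected on the measured level of the EGR1 probe itself: a wolf with a level above 0.8 was placed on the high side and a wolf below it on the low side. This put 5 of the 13 wolves on the high side (wolves 11310, 10537, 10632, 10406 and 111080, with 20 arrays) and 8 on the low side (wolves 11148, 11105, 11206, 11275, 11136, 11274, 11270 and 11273, with 32 arrays). EGR1 chose the sides, so its levels are given as a description and carry no test.

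Whole blood was drawn from 13 red wolves (Canis rufus) and 1 coyote and kept in RNAlater. The amplified, biotin-labelled RNA of each animal was placed on 4 human Illumina bead arrays, which gave 56 arrays on 7 slides. The labels used here give no treatment, genotype or age for any animal of either side. The design text names 6 captive and 7 free-ranging wolves of both sexes, but status and sex are not tied to single wolves in the labels, so neither could be set against the EGR1 sides. The labels mark as collected in the wild 2 of the 5 high wolves and 1 of the 8 low wolves, and a wolf without that mark need not have been captive. Wolves 10406, 10537 and 10632, which carry the 3 lowest sample numbers, all lay on the high side, and the labels do not say what the number stands for.

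Immediate-early genes such as EGR1 and FOS are transcribed from pre-existing transcription factors, without new protein synthesis, when growth factor, stress or antigen receptors signal through MAP kinases to serum response factor and its partners. FOS pairs with JUN family proteins to form AP-1, while EGR1 binds GC-rich promoters and is held back by the co-repressors NAB1 and NAB2. The response is short, because the same signals induce phosphatases, decay factors for messenger RNA and inhibitors that shut it down, and in white blood cells it precedes the transcription of cytokines and surface activation markers.

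All levels are on the log2 scale with the array mean at 0, where 1 unit is a 2-fold step in intensity. The level of a wolf is its coefficient in a fit of animal and slide over its 4 arrays, which share 1 labelled RNA and are technical. Each wolf therefore counts once, and the number of wolves limits the precision. The probes were designed for human transcripts, a gene name is that of the human probe, and levels of different probes do not rank transcripts. A probe was taken to be above background when it passed 0.396, the level of HPX, the brightest of 50 genes specific to liver or skeletal muscle. Among the 24353 probes other than EGR1, 2069 lay above this bound over the wolves.

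Wolf 11310 stood at an EGR1 level of 5.48, wolf 10537 at 1.83, wolf 10632 at 1.58, wolf 10406 at 1.24 and wolf 111080 at 1.15. On the low side, wolf 11148 stood at 0.42 and the other 7 wolves lay between -0.23 and 0.10, below the background bound. The wolves nearest to the threshold were thus 111080 inside it and 11148 outside it, 0.73 apart, while arrays of the same animal had an SD of 0.16. Of the high wolves, 4 thus lay between 1.15 and 1.83, and wolf 11310 lay far above them.

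FOS, the AP-1 subunit induced by the same signals, divided the wolves in the same way. The threshold used EGR1 alone, but this pairing was already known when the sides were set. For wolves 11310, 10537, 10632, 10406 and 111080, in falling order of EGR1, the FOS level was 4.68, 2.33, 1.87, 1.87 and 2.13. The 8 low wolves had a lowest FOS level of 0.20 in wolf 11273, a median of 0.74 and a highest of 1.04 in wolf 11206. The sides did not overlap, with a gap of 0.83 between the lowest high wolf and the highest low wolf. Unlike EGR1, FOS lay above the background bound in 7 of the 8 low wolves.

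The mean FOS level was 2.58 ± 1.19 (SD, n = 5) on the high side and 0.70 ± 0.24 (SD, n = 8) on the low side. The difference of 1.88 (SE 0.31, 95% interval 1.25 to 2.51) corresponds to 3.68-fold, with an interval of 2.37 to 5.71. Without wolf 11310 the high side stood at 2.05 ± 0.22 (SD, n = 4), and the difference was 1.35 (SE 0.16, 95% interval 1.03 to 1.68), or 2.55-fold. FOS was higher in the high wolves within each of the 7 slides, by 1.02 to 2.46. The slides hold repeat arrays of the same wolves, so this is technical agreement, and some slides held only 1 array of the high side. The pairing of FOS with EGR1 in these wolves was known when the sides were set, so its values are a description: no p-value is given for it, and its place among the probes called below is no independent support. The coyote, which belongs to neither side, had 1.82 for EGR1 and 3.21 for FOS.

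**Figure D1:**
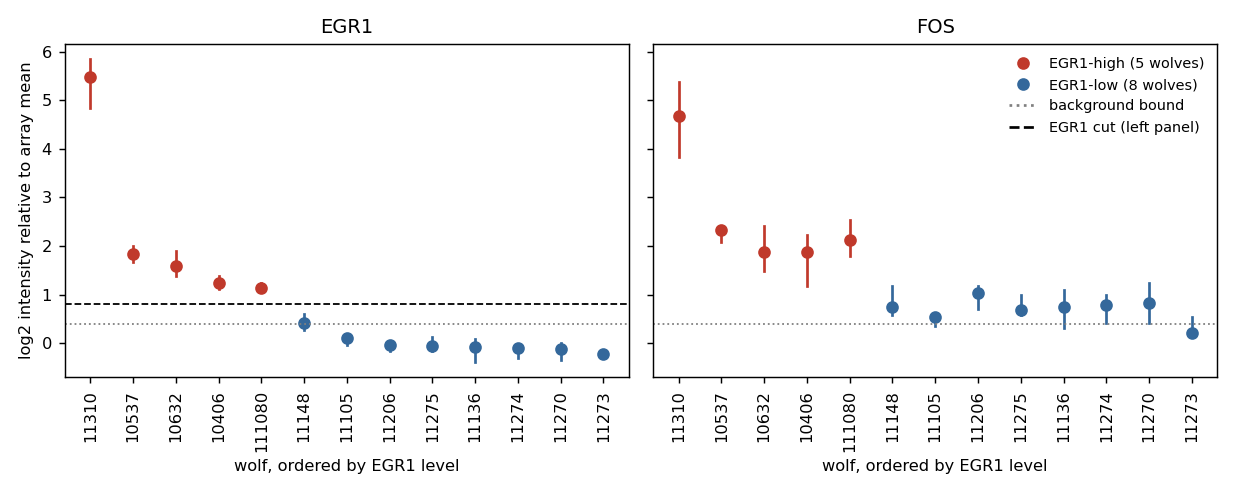
Level of the EGR1 probe (left) and the FOS probe (right) in each of the 13 wolves, as log2 intensity relative to the array mean; points are the level of a wolf, lines span its 4 arrays, red marks the 5 EGR1-high wolves and blue the 8 EGR1-low wolves. The dashed line is the EGR1 threshold of 0.8 and the dotted line the background bound of 0.396; the FOS levels of the high wolves, 1.87 to 4.68, all lie above those of the low wolves, 0.20 to 1.04.

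No probe of the array passed the test beside FOS. In limma, with Benjamini-Hochberg adjustment over 24353 probes, 1 probe (0.00411%) passed an adjusted p of 0.05 between the 5 high and 8 low wolves, and it was FOS. At an unadjusted p under 0.05 there were 402 probes (1.65%) higher and 380 (1.56%) lower on the high side. Among the 2069 probes above background these numbers were 10 higher, FOS included, and 4 lower. For any probe, a call here says that its level goes with the EGR1 side in these wolves and no more. With all 5 high wolves this count was not stable, and no probe passed with another centring (each array's median set to 0), with arrays scaled to a common SD, without the slide term, without the intensity trend or with robust moderation of the variances. The count was also 0 when any 1 of wolves 10537, 11105, 11136, 11148, 11270, 11273, 11274 or 11275 was left out.

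The same fit without wolf 11310 again called 1 probe (0.00411%), FOS, with 308 probes (1.26%) higher and 355 (1.46%) lower at an unadjusted p under 0.05. Here the count was never 0 under the alternative settings tried or with any further wolf left out. FOS was among the probes called each time, and its pairing with EGR1 was known beforehand, so this stability is no independent support. The SD of FOS on the high side was 1.19 with wolf 11310 and 0.22 without it. The smallest adjusted p apart from FOS was 0.275 with all 5 high wolves and 0.167 without wolf 11310. Both belonged to the same probe, which has no gene symbol in the annotation used. Its level lay between 0.17 and 1.43 on the high side and between -0.20 and 0.13 on the low side, with a difference of 0.64 (SE 0.13), or 0.44 without wolf 11310, and it passed the background bound in 2 wolves. Without wolf 111080 it was called beside FOS, both with wolf 11310 and without it.

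Apart from FOS, the wolves of the 2 sides overlapped in nearly every probe. In 13 probes (0.0534%) every high wolf lay above every low wolf, and in 6 (0.0246%) every high wolf lay below. FOS was the 1 member of these 19 with a mean over all wolves above the background bound. The widest gaps after FOS were 0.07 for ADD3, an adducin of the membrane skeleton, 0.04 for the unnamed probe and 0.03 for RHBDF2, a rhomboid-like protein that controls the shedding of TNF. ADD3 and RHBDF2 were below the bound in all 13 wolves. Without wolf 11310 the numbers were 27 probes (0.111%) above and 25 (0.103%) below, and FOS was again alone above the bound.

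The precision sets what could have been seen. For probes above background the median SE of the difference was 0.134 and the median 95% interval reached 0.274 to either side. This interval is unadjusted, and a call after adjustment over all probes asked for more. The unnamed probe with the smallest adjusted p apart from FOS differed by 0.64 (SE 0.13). Its adjusted p in limma was 0.275, so it was not called. Among bright response genes the SE ran from 0.08 for FOSL1 to 0.46 for CEBPB. The lack of a call thus does not exclude a difference beyond 0.274. With all 5 high wolves, FOS was the 1 probe of the array that differed by more than 1. Without wolf 11310 there were 2, FOS and a bright probe with no gene symbol, which differed by 1.02 (SE 0.70, 95% interval -0.42 to 2.45), was not called and overlapped between the sides. Of the 2069 bright probes, 40.5% were higher on the high side, with a median difference of -0.02. Without wolf 11310 the share was 54.5% and the median 0.01, so which side was higher in most bright probes depended on that wolf.

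**Figure D2:**
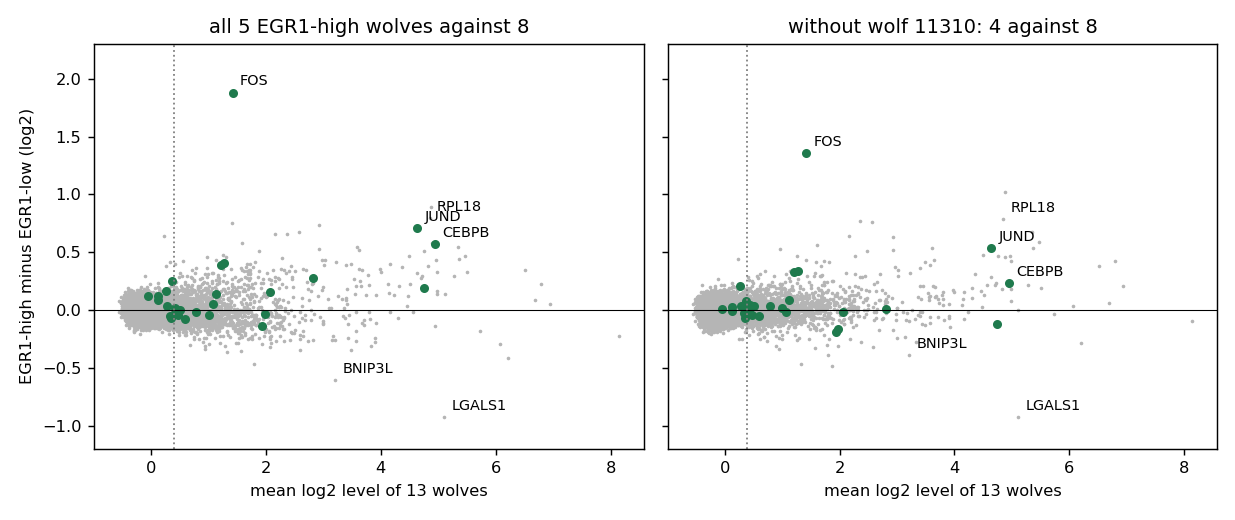
Difference between the EGR1-high and EGR1-low sides (log2, vertical) against the mean level of the 13 wolves (log2, horizontal) for 24353 probes, with all 5 high wolves (left) and without wolf 11310 (right); green points are response and signalling genes above the bound in at least 1 wolf, and the dotted line is the background bound. FOS lies at 1.88 on the left and at 1.35 on the right, where a probe without a gene symbol lies at 1.02, while JUND and CEBPB lie at 0.71 and 0.57 on the left.

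In the wider immediate-early response, no gene besides FOS passed the test. Of 104 measured genes in 6 lists (AP-1 subunits, EGR family and co-repressors, other immediate-early regulators, feedback inhibitors, secreted and surface response genes, and signalling upstream of EGR1), 29 were above the bound in at least 1 wolf and 75 in none. Among the 103 besides FOS, 48 were higher and 55 lower on the high side, none was called, and the median difference was 0.00, as over all probes. At an unadjusted p under 0.05, 1 was higher (DUSP10) and 4 were lower (IER2, NFKBIE, MAP2K3 and MAPK9), 4.85% together against 1.65% higher and 1.56% lower over all probes, and all 5 lay below background in every wolf.

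Of the 11 AP-1 subunits measured, 4 were higher and 7 lower on the high side, and 1, FOS, was called. JUND, the JUN family member that resting cells already hold, was the next in size. In the same order of wolves its level was 5.76, 5.31, 4.15, 4.46 and 5.68, against 3.47 to 5.24 in the low wolves with a median of 4.35. The difference was 0.71 (SE 0.40, 95% interval -0.11 to 1.53), or 0.54 without wolf 11310. The 3 upper high wolves stood above all low wolves, whereas wolves 10632 and 10406 lay among them. MAFG, a small MAF protein that pairs with other basic leucine zipper factors, differed by -0.14, FOSB by 0.02 and FOSL1 by -0.04. The partner JUN itself, JUNB, FOSL2, BATF, MAFF and ATF3, a stress-induced member, gave no signal above the bound in any wolf.

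Within the EGR family, EGR3 and EGR4 were below the bound in every wolf, and EGR2 had no probe in the table. The co-repressor NAB1, which binds EGR proteins, differed by -0.07 (SE 0.12), and NAB2 by -0.05 (SE 0.08). Of the 4 family members measured, 1 was higher and 3 were lower, none called.

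Of the 17 other immediate-early regulators, 8 were higher and 9 lower, none called. CEBPB, a leucine zipper factor of myeloid cells and inflammation, had levels of 6.65, 5.47, 4.37, 3.62 and 6.35 in this order. The low wolves ran from 4.12 to 6.03 with a median of 4.39, so 2 high wolves exceeded them all and wolf 10406 lay beneath them all. The difference was 0.57 (SE 0.46, 95% interval -0.37 to 1.52), and 0.23 without wolf 11310. The zinc finger factors KLF6 and KLF2, the latter known for keeping T cells and monocytes quiescent, differed by 0.41 (SE 0.26) and 0.38 (SE 0.23). Both were highest in wolf 111080, the wolf with the lowest EGR1 of the high side, at 2.32 and 2.29, and their low-side ranges of 0.52 to 2.12 and 0.41 to 1.67 overlapped those of the high side. CSRNP1, a nuclear protein inducible by AXIN1, differed by -0.04 (SE 0.37), the orphan receptor NR4A3 by -0.04, the helix-loop-helix inhibitor ID3 by -0.02 and CEBPD by 0.00. KLF4 passed the bound in wolf 11310, at 0.43, and its highest low wolf had 0.48. MYC, NR4A1, IER2 and IER5 were at background in all wolves.

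The feedback inhibitors included several genes that were high in wolf 11310 without being high on its side. Of 28 measured, 20 were higher and 8 lower with all 5 high wolves, and 13 were higher without wolf 11310, none called. PPP1R15A, which encodes the stress-induced regulator GADD34 of a phosphatase, stood at 1.22 in wolf 11310 and at 0.22 to 0.58 in the other 4 high wolves, and the low wolves ran from -0.09 to 0.77. GADD45B, a stress-induced activator of p38 signalling, had 0.71 in wolf 11310 and at most 0.32 in any other wolf. TRIB1, a pseudokinase that directs CEBP proteins to degradation, passed the bound in wolf 11310 alone, at 0.46, and lay between -0.16 and 0.00 in the 12 others. The antiproliferative gene BTG1 was highest in wolf 11310, at 6.09, yet wolf 10406 had the lowest level of all, 3.60. PPP1R15A, GADD45B, TRIB1 and BTG1 are described here for their level in wolf 11310, and GADD45B, like TRIB1, passed the bound in it alone.

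Once wolf 11310 was left out, the differences of these genes were near 0: PPP1R15A went from 0.25 (SE 0.14) to 0.07, GADD45B from 0.12 to -0.01, TRIB1 from 0.12 to 0.01, BTG1 from 0.19 (SE 0.42) to -0.12 and its relative TOB1 from 0.27 (SE 0.39) to 0.01. PPP1R15A, GADD45B, TRIB1 and BTG1 were singled out for their level in wolf 11310, so a lower difference without it follows from that choice. ZFP36L1, which promotes the decay of AU-rich messenger RNA, went from 0.16 (SE 0.33) to -0.01. SOCS1, an inhibitor of cytokine signalling through JAK kinases, took the other course. It had 0.82 in wolf 10537 and 0.17 in wolf 11310, against -0.02 to 0.35 in the low wolves, and passed the bound in wolf 10537 alone. Its difference of 0.16 (SE 0.09) was 0.21 without wolf 11310 and was not called. GADD45A differed by 0.06 and SPRY4 by 0.00. The MAP kinase phosphatases DUSP1, DUSP2, DUSP4, DUSP5 and DUSP6, the NF-kB inhibitor NFKBIA, the deubiquitinating enzyme TNFAIP3 and the RNA decay factor ZFP36 gave no signal above the bound.

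Of the 18 secreted and surface response genes, ICAM1, an adhesion molecule, passed the bound in a wolf and differed by -0.02 (SE 0.08). The cytokines and chemokines CXCL8, IL1B, IL6, TNF, CCL3 and CCL4, the early activation marker CD69 and the prostaglandin synthase PTGS2 did not pass it in any wolf, high or low. Among the 26 signalling genes upstream of EGR1, 9 were higher and 17 lower, none called. The kinase MAP2K1 differed by 0.14 (SE 0.17), ARAF by -0.08, the adaptor GRB2 by -0.03 and the ternary complex factor ELK4 by 0.03. SRF, ELK1 and HRAS were below the bound in all wolves. The 75 response and signalling genes below the bound in every wolf differed by -0.12 to 0.11, and a level below the bound gives no measure of these genes here.

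**Figure D3:**
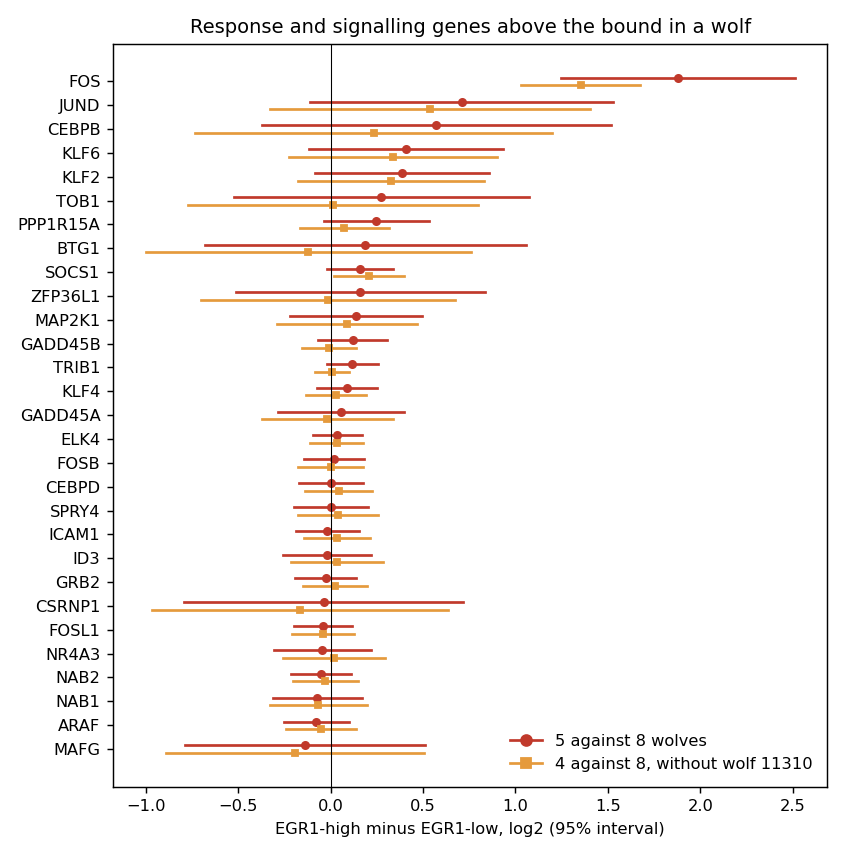
Difference between the EGR1-high and EGR1-low sides (log2, with 95% interval) for the 29 response and signalling genes above the bound in at least 1 wolf, with all 5 high wolves (red circles) and without wolf 11310 (orange squares). The interval of FOS lies above 0 in both, at 1.25 to 2.51 and 1.03 to 1.68; SOCS1 is above 0 without wolf 11310 alone, and the other intervals include 0.

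No gene that marks a blood cell type passed the test. In the 8 blood cell lists no member was called, and none passed even an unadjusted p of 0.05. The range of the list's mean level overlapped between the sides for each: 0.61 to 0.99 on the high side and 0.70 to 1.06 on the low side for 19 red cell genes, 0.04 to 0.11 and 0.04 to 0.14 for 16 platelet genes, -0.03 to 0.02 and -0.03 to 0.03 for 22 neutrophil genes, -0.08 to 0.00 and -0.13 to -0.02 for 14 monocyte genes, and 0.01 to 0.07 and -0.02 to 0.07 for 18 T cell genes. For 17 NK and cytotoxic genes the ranges were -0.06 to 0.01 and -0.08 to 0.00, for 15 B and plasma cell genes -0.11 to -0.03 and -0.09 to 0.00, and for 8 eosinophil and basophil genes 0.02 to 0.08 and -0.01 to 0.10. In sums over the members, the red cell list ran from 11.67 to 18.86 on the high side and from 13.36 to 20.12 on the low side.

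Few of these markers gave a signal with the human probes. S100A8 and CD14, which define neutrophils and monocytes, CD3E of T cells and MS4A1 of B cells had mean levels of -0.24, -0.16, -0.25 and 0.00, at or below the array mean, so white cell makeup could be read from few genes. TYROBP, a signalling adaptor of myeloid and NK cells, had 0.42 to 0.76 on the high side and 0.41 to 0.89 on the low side. The T cell kinase LCK differed by 0.17 (SE 0.12). In bulk blood, fewer cells of a type and less RNA per cell cannot be told apart. Of the 19 red cell genes, 10 were higher and 9 lower, with a median of 0.00, and the 3 largest differences were below 0. BNIP3L, a mitophagy receptor of maturing erythroid cells, differed by -0.61 (SE 0.42), the delta-globin probe HBD by -0.42 (SE 0.28) and the gamma-globin probe HBG1 by -0.31 (SE 0.37). Wolf 11310 was the lowest of all wolves for BNIP3L, at 1.95, HBD, at 5.41, and HBG1, at 2.72, and without it the differences were -0.39, -0.28 and -0.09. None passed the test, and their part in the level of EGR1 and FOS was not tested.

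Among the other processes, actin cytoskeleton genes had the highest list median. Of 34 measured, 25 were higher and 9 lower on the high side, with a median of 0.06 against 0.00 over all probes, and 0.03 without wolf 11310, and none was called. ARPC3, a subunit of the actin-nucleating ARP2/3 complex, had 2.60, 1.55, 1.92, 1.43 and 2.22 in the high wolves, in the same order, and from 0.46 to 2.22 in the low wolves. Its difference was 0.58 (SE 0.25, 95% interval 0.06 to 1.09). ARPC3 was named for the size of this difference, and wolf 11310 had its highest level. In limma it was the 1 actin gene with an unadjusted p under 0.05, and without wolf 11310 there were 0. ARPC3 held its direction within all 7 slides, which hold repeat arrays of the same wolves, but the sides overlapped. The actin monomer binder PFN1 differed by 0.58 (SE 0.43) and cofilin, CFL1, by 0.52 (SE 0.54), or 0.12 without wolf 11136, which had the lowest CFL1 level, 0.64.

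Ribosomal protein genes divided into 38 higher and 30 lower of 68, with a median of 0.02. RPL18 had the widest difference, 0.80 (SE 0.44), and stood between 4.98 and 5.55 on the high side. The low side ran from 2.03 to 5.48, and its lowest value came from wolf 11136, whose arrays had the narrowest range of values, and without that wolf the difference was 0.44. RPLP1, RPL12 and RPS9 differed by 0.44 (SE 0.29), 0.47 (SE 0.32) and 0.51 (SE 0.35). The elongation factor EEF1A1, at 2.74 to 3.77 on the high side and 0.34 to 3.79 on the low side, was also lowest in wolf 11136, and its difference of 0.43 (SE 0.44) was 0.08 without that wolf.

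No stress or interferon gene passed the test. Of 20 heat shock and folding genes, 6 were higher and 14 lower, with a median of -0.02, and the chaperone gene HSPH1 differed by -0.29 (SE 0.24), DNAJA1 by -0.10 and HSPA8 by 0.10. Without wolf 11310 these values were -0.17, -0.30 and -0.08. Of 15 glucocorticoid response genes, 6 were higher and 9 lower, and KLF9 and FKBP5, both induced by cortisol, differed by 0.09 (SE 0.24) and -0.01 (SE 0.11). Of 26 interferon response genes, 8 were higher and 18 lower, none called, with OAS2 at 0.15 to 1.40 on the high side and 0.08 to 2.99 on the low side. The 19 hypoxia response genes had a median of 0.00 and the 14 genes of NF-kB signalling 0.00. In the 17 glycolysis genes the median was 0.05, with TPI1 at a difference of 0.25 (SE 0.34) and GAPDH at 0.23 (SE 0.46). The medians of the remaining lists lay between 0.00 and 0.03, which covers translation factors, the respiratory chain, proteasome and ubiquitin, splicing and RNA binding, antioxidant defence, histones and HMG proteins, housekeeping, liver, skeletal muscle and proliferation. Without wolf 11310 no member of any of the 32 lists but FOS was called.

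**Figure D4:**
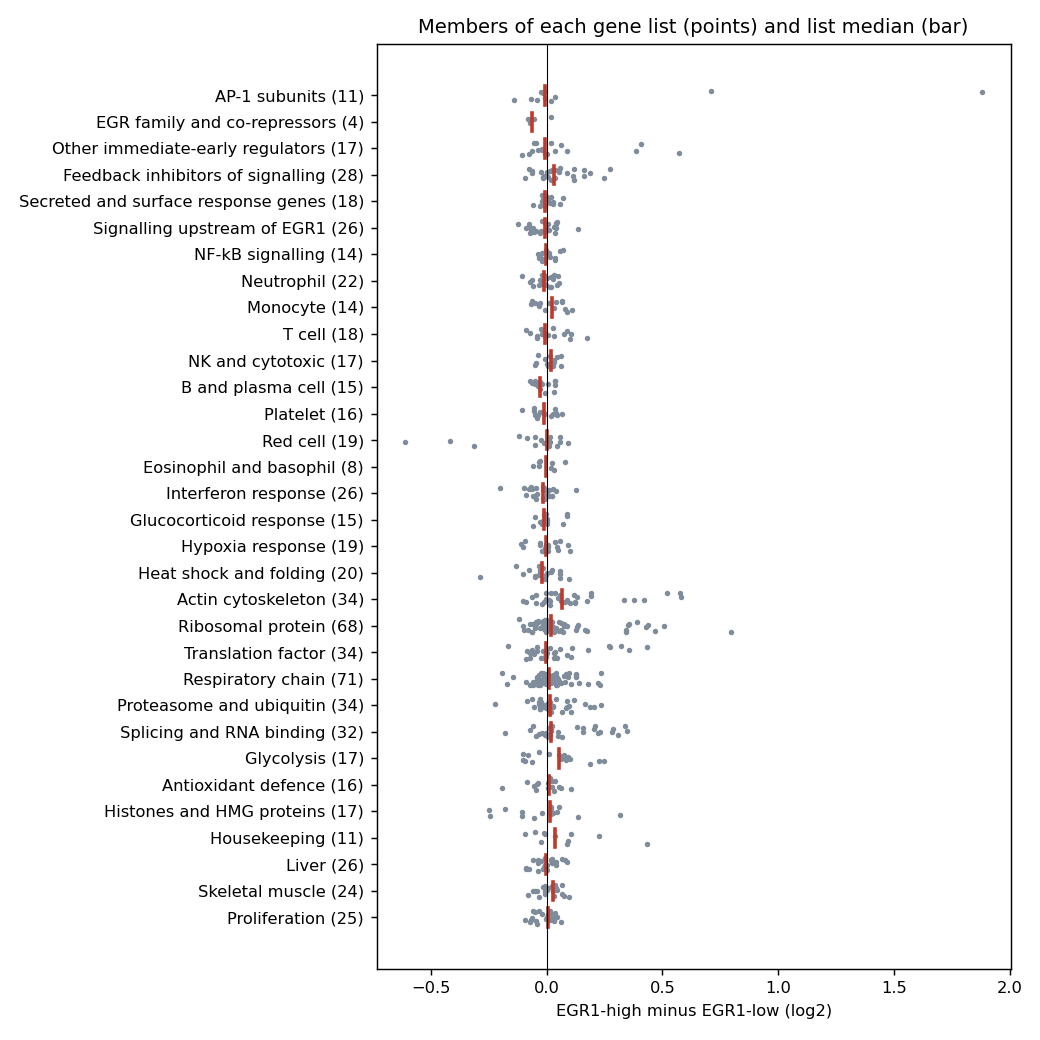
Difference between the EGR1-high and EGR1-low sides (log2) for each measured member (points) of 32 gene lists, with the list median as a red bar and the number of measured members in parentheses. The medians lie between -0.06 and 0.06, and the point at 1.88 in the list of AP-1 subunits is FOS.

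Other genes with wide differences did not pass either, and are named here after their values were seen. LGALS1, which encodes galectin-1, had the largest difference of a named gene below 0, -0.93 (SE 0.45), with 2.95 to 6.53 on the high side and 4.95 to 6.39 on the low side, and -0.93 without wolf 11310. The sides also overlapped in MARCHF2 and CDA, which varied widely among these wolves. The ubiquitin ligase gene MARCHF2 was above 1 in 2 of the 5 high wolves and 3 of the 8 low wolves, and differed by -0.05 (SE 0.68), or 0.27 without wolf 11310. CDA, the cytidine deaminase gene, ran from 3.56 to 6.14 on the high side and from 3.32 to 5.84 on the low side.

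Over their whole bright transcriptome, wolves of the same EGR1 side were not closer to each other. The median absolute difference between 2 wolves over 2069 probes was 0.238 within the high side (10 pairs), 0.267 within the low side (28 pairs) and 0.228 between the sides (40 pairs). The nearest wolf of each of the 5 high wolves was a low wolf. The nearest wolf of 6 of the 8 low wolves was a high wolf.

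Wolf 11310, with the highest EGR1 and FOS, stood far above the other wolves in few other genes. It was the highest of the 13 wolves in 81 of 2069 bright probes and the lowest in 460. Several wolves were the highest in more probes, up to 423 in wolf 11206, but wolf 11136 alone was the lowest in more, 842. The 95th percentile of the array values was 0.607 in wolf 11310. It was lower in wolves 10406 and 11136 alone, at 0.568 and 0.381. The part of signal range in these counts was not tested. Wolf 11310 exceeded all others by more than 1 in 2 of these probes, that of FOS and 1 of AZIN1, an inhibitor of antizyme. The latter stood at 1.78 against at most 0.67. The 2 probes of AZIN1 disagreed, with differences between the sides of 0.40 and -0.12. Wolf 11310 lay below all others by more than 1 in 0 of the bright probes, and wolf 11136 in 14. DYNLL2, a dynein light chain whose mean over all wolves was below the bound, had 1.80 in wolf 11310 and -0.09 to 0.35 in the other 12. CIRBP, an RNA-binding protein induced by mild cold, whose mean was also below the bound, had 1.60 against at most 0.64. The autophagy enzyme ATG3 had 2.24 against at most 1.35, and the tubulin gene TUBA4A 3.49 against at most 2.78. CHCT1 stood at 1.23 against at most 0.51, CNOT11, a subunit of the CCR4-NOT deadenylase, at 1.55 against at most 1.13, and GNB2, a G protein beta subunit, at 2.13 against at most 1.76. These levels were not shared by the other high wolves, and the differences between the sides without wolf 11310 were 0.06 for DYNLL2, 0.16 for CIRBP, -0.11 for ATG3 and 0.00 for TUBA4A. The genes were named because wolf 11310 stood above all others in them. Levels not shared by the other wolves, and lower differences without wolf 11310, follow from that choice.

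On the other side, ADIPOR1, the adiponectin receptor, was lowest in wolf 11310, at 4.59 against 5.33 to 6.94 in the others. ETS1, a lymphocyte transcription factor, had 1.64 against at least 2.09, LITAF, an endosomal protein, 1.69 against at least 2.15, FLT4, a growth factor receptor, 0.83 against at least 1.40, and TMEM40 1.06 against at least 1.55. CA11, DCLK1, CYP51A1 and the olfactory receptor probe OR2D3 lay below all others by 0.42 to 0.46. Array noise for these genes, as the SD between arrays of an animal, was between 0.19 and 0.45.

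**Figure D5:**
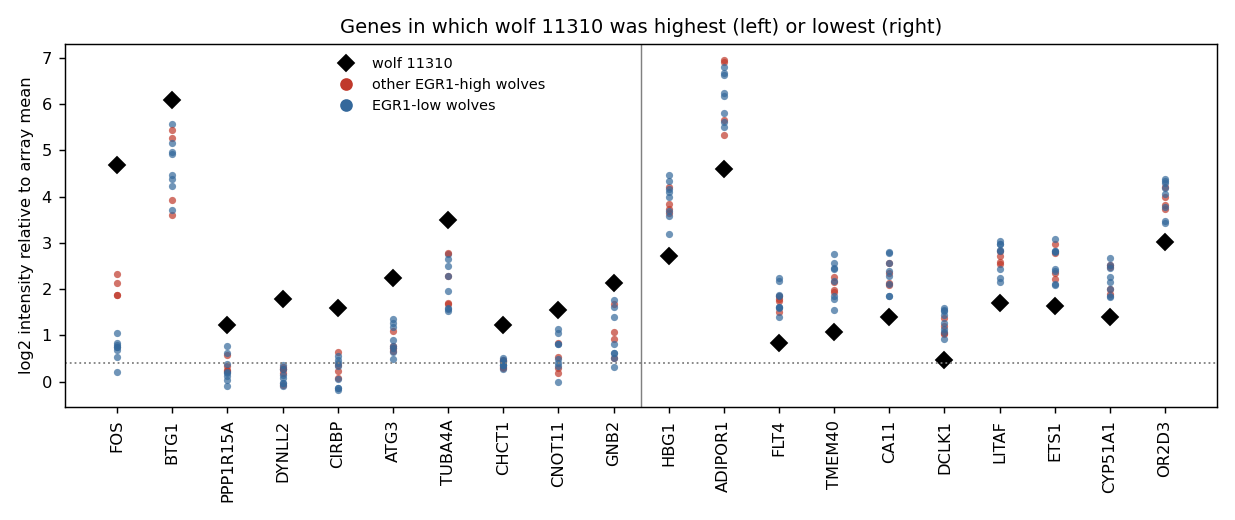
Level (log2 intensity relative to the array mean) of the 10 genes in which wolf 11310 stood highest above the other 12 wolves (left) and the 10 in which it stood lowest below them (right); diamonds are wolf 11310, red points the other EGR1-high wolves, blue points the EGR1-low wolves, and the dotted line is the background bound. FOS at 4.68 and DYNLL2 at 1.80 lie farthest above, and of these genes FOS is the 1 in which the other red points also stand above the blue ones.

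Technical measures overlapped between the sides. The 95th percentile of the array values, a measure of signal range, was 0.692 ± 0.117 (SD, n = 5) on the high side and 0.744 ± 0.159 (SD, n = 8) on the low side, with an exact two-sided permutation p of 0.571 over 1287 splits. The share of probes above the bound was 8.53% on the high side and 8.74% on the low side (exact permutation p = 0.798), and the SD of the array values gave an exact permutation p of 0.756. Adjusted over the 3 measures, each p was 0.798, which does not show that the sides were alike. Every slide held arrays of both sides, but in uneven numbers, from 5 high against 2 low arrays to 1 high against 7 low.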

How the data were processed

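The deposited values are log2 intensities of 24354 probes. BeadStudio 1.5.0.34 was used, per the submitters' processing notes. Per the labels' design text, the authors took log2 and centred on the median. In the table the array means are 0 (largest absolute mean 3.24e-09) and the medians lie between -0.167 and -0.0325. Whether background was subtracted is not stated there. A gene symbol is annotated for 18339 probes and none for 6015. Coordinates are left out, since a canid genome was not used here.

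All 56 arrays were fitted with animal and slide (slide effects summing to 0), and 1 value per wolf was compared with limma (version 3.58.1, run in R 4.3.3), with an intensity trend and Benjamini-Hochberg adjustment at 0.05. Genes were represented by their brightest probe. The procedure was tested on simulated data.

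The members, lists and sides were chosen with earlier results of these data known. The genes named are those called or not overlapping between the sides with a side mean above the bound, response members above the bound in a wolf, up to 4 bright members of every other list by the size of the difference, and up to 10 genes in each direction in which wolf 11310 stands apart. Genes named beyond these, which include those below the bound, were chosen after their values were seen. Other centring, scaling and model settings and leaving out each wolf were tried as alternatives, and leaving out each wolf for the signal range was added after the data were seen.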

Additional observations from a re-analysis of the deposited data

Results flagged for a closer look

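In 220 groups (the 2 sides for 109 genes and the signal range), the highest or lowest wolf was tested for a value far from the rest of its side, and 19 had one. Chance gives about 1 in 20 groups for genes not chosen on these values. That rate is no measure here. EGR1 set the sides, and DYNLL2, ATG3, CHCT1, TMEM40 and LITAF were named because wolf 11310 stood apart in them. FOS also met that rule. TRIB1 and SOCS1 were named because 1 wolf passed the bound, wolf 11310 for TRIB1 and wolf 10537 for SOCS1. KLF4 passed it in 2 wolves, with wolf 11310 among them. On the high side, wolf 11310 stood far above the other 4 wolves in EGR1 (5.48), FOS (4.68), KLF4 (0.43), TRIB1 (0.46), DYNLL2 (1.80), ATG3 (2.24) and CHCT1 (1.23), and far below them in TMEM40 (1.06) and LITAF (1.69). Wolf 10537 stood far above the rest of the high side in SOCS1 (0.82) and TYROBP (0.76).

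On the low side, wolf 11136 stood far below the other 7 wolves in NCF1 (0.12), GZMB (-0.13), HDC (0.32), RPL18 (2.03), EEF1A1 (0.34) and PSMD4 (-0.14), and its arrays had the narrowest signal range, with a 95th percentile of 0.381. Wolf 11206 stood far above the rest of the low side in KLF9 (2.42).

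The coyote enters no comparison of the sides. Its EGR1 level of 1.82 and FOS level of 3.21 exceeded the highest low wolf, at 0.42 and 1.04.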

How the results depend on the processing

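The same 5 wolves lay above the EGR1 threshold under each of the 6 ways of setting the array values. The difference of FOS ran from 1.35 to 2.06 over all settings. Between 5 and 8 wolves, the number of probes called (1) was 0 with the median set to 0, arrays scaled to the mean SD, no slide term, no intensity trend or robust moderation, and 2 with the arrays fitted singly and the animal as a random block. It ran from 0 to 2 as each wolf was left out. Without wolf 11310 it was 1 in the other settings and 2 with the random block, and ran from 1 to 2 with a further wolf left out.

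The 19 probes whose sides do not overlap became 32 with quantile normalization, 33 with arrays scaled to the mean SD and 1 with dim probes left out, where fewer probes were counted. With a wolf left out there were 27 to 65, since fewer wolves must be separated. The share of bright probes higher on the high side was 32.2% without the slide term and 47.6% with quantile normalization. Of 768 differences of 108 named genes under other settings, 66 had the opposite sign, and 63 genes kept their sign in every setting. Except for the steps named as such, the cause of these shifts was not tested. Signal is a limit, since 5.73% to 10.5% of probes lay above background in a wolf.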
